A study of Mus musculus with 66 samples.

Results

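Genes for protein phosphatases and their subunits were followed through the first wave of spermatogenesis in the mouse testis. They were taken by symbol in the annotation of the arrays, as every gene whose symbol starts with Ppp1 to Ppp6 (catalytic and regulatory subunits of the PPP phosphatases), Ppm1 (the metal-dependent PPM phosphatases) or Dusp (the dual-specificity phosphatases). Of 109 such genes, 104 had a probe set that named the gene alone and reached a signal of 50 on at least 2 arrays, out of 13472 genes measured in the series by the same filter. The brightest probe set stood for each gene. Dusp21, Dusp27, Ppp1r14d, Ppp1r1a and Ppp1r3b did not pass. The second highest signals of Ppp1r14d and Ppp1r1a, just outside the filter, were 34.8 and 40.7, while those of Ppm1e and Ppp1r14a, just inside, were 56.8 and 62. Dusp13, Ppp1r2-ps7, Ppp1r36 and Ppp6r2 reached a signal of 50 on fewer than 2 of the 10 arrays of days 0 to 10. They were therefore measured only because they were brighter later.

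The samples were total RNA of whole testes of BL/6-129 mice at days 0, 3, 6, 8, 10, 14, 18, 20, 30, 35 and 56 after birth. Each day had 2 numbered samples, and each sample was hybridised to 3 kinds of array (types A, B and C), 66 arrays in all. No sample carried a treatment or a named mutation, and since the labels name neither separate mice nor pools, p-values measure only the spread between these samples, which may be partly technical. The main comparison set the 6 samples of days 30, 35 and 56, when spermatids of all stages are present, against the 10 samples of days 0 to 10, before spermatocytes are common.

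Reversible phosphorylation on serine and threonine is undone mainly by the PPP family, in which a few catalytic subunits gain their targets from many regulatory subunits. PP1 and PP2A carry most of this activity, calcineurin (PP2B) is switched on by calcium and calmodulin, and the PPM enzymes act as single chains. Dual-specificity phosphatases remove phosphate from tyrosine and threonine, and those called MAP kinase phosphatases switch off ERK, JNK and p38. Male germ cells are known for their own forms: a calcineurin built from the Ppp3cc and Ppp3r2 products, which mouse sperm need for a flexible midpiece, and a splice form of Ppp1cc that is the main PP1 of sperm.

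Promoters are shown for the calcineurin B pair and for an inhibitor pair, because one gene of each pair rose steeply and the other did not, and for Ppm1d, a riser with a cyclic AMP response element (CRE). Each is 250 bases before to 50 bases after the gene's start, from RefSeq on GRCm38.p6, read 5′ to 3′ on the gene's own strand. Capitals mark the CRE (TGACGTCA), the GC box (GGGCGG) and the TATA box (TATAAA), each on either strand.
Ppp3r2 (chr4:49681934-49682233, strand -): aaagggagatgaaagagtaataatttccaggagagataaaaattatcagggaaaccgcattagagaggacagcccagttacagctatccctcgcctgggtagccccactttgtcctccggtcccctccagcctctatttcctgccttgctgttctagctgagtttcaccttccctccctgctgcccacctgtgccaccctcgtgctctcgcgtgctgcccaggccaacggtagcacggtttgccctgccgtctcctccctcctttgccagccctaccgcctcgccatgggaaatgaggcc
Ppp3r1 (chr11:17159048-17159347, strand +): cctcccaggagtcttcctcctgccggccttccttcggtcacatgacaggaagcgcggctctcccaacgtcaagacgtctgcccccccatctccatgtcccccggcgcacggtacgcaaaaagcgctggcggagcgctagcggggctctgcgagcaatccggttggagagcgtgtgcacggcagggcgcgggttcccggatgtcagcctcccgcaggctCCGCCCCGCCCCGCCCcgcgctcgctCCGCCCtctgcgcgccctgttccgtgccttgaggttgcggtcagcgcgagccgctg
Ppp1r14bl (chr1:23102204-23102503, strand -): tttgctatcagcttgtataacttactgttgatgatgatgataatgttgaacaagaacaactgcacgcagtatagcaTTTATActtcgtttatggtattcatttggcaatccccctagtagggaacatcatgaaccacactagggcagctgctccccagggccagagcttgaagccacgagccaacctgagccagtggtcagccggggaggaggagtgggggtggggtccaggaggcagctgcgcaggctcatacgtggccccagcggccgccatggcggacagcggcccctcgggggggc
Ppp1r14b (chr19:6974798-6975097, strand +): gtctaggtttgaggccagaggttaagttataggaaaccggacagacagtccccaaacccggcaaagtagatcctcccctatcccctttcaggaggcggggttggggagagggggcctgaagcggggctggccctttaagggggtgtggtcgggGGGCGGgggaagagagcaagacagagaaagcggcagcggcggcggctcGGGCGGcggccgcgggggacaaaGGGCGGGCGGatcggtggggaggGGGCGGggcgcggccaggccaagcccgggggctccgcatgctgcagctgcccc
Ppm1d (chr11:85311004-85311303, strand +): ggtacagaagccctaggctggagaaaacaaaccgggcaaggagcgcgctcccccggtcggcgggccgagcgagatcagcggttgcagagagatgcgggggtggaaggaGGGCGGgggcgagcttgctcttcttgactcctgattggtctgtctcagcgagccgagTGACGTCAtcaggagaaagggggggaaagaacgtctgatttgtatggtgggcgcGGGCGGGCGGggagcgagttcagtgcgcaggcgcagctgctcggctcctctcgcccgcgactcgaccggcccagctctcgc

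The window of Ppp3r2 held 11 CpG dinucleotides and none of the motifs, against 36 CpGs and a run of GC boxes in that of Ppp3r1. The window of Ppp1r14bl likewise held 11 CpGs, against 23 CpGs and several GC boxes in that of Ppp1r14b. The TATA box letters of the Ppp1r14bl window lay on the opposite strand and well before the start. Over the table, 82 members had 100 promoters. A GC box was present in 41.2% of the 17 promoters of members that rose late, against 76.7% of the 60 of members not called and 73.9% of the 23 of members that fell, and in 35.7% of all 32851 promoters. The median CpG count was 11 in promoters of members that rose, 24 in those not called, 23 in those that fell and 7 in all promoters. The CRE was in 1 of the 17 promoters of members that rose (5.88%), that of Ppm1d, in 3 of the 23 of members that fell (13%) and in 1.79% of all promoters. The TATA box was in 1 of the 17 (5.88%), that of Ppp1r14bl, in 0 of the 23 and in 13.6% of all promoters. Some genes have several promoters, 4 of the 17 being of Dusp13 and 2 of Ppp2r5c, and these shares were not tested.

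Every array had been scaled to the same mean signal, and the correlation between the samples of a day was 0.889 to 0.976 on type A, 0.804 to 0.95 on type B and 0.78 to 0.941 on type C, lowest at day 0 on each. The ratio of the 3′ to the 5′ actin control ran from 1.12 to 2.01 over all arrays. Summed signals of 4 round spermatid markers were 12643 to 19866 at days 30 to 56 and 107.5 to 241 at days 0 to 10, and those of 7 elongating spermatid markers, Prm1 among them, were 32044 to 54934.5 and 276 to 1482. Sertoli cell markers summed to 1006 to 1452.5 late against 2427 to 3508 early, and myoid markers to 359 to 504.5 late against 1336 to 2321 early. Of 3 epididymis markers 0 were measured, while the adipocyte marker Adipoq had 137 to 216 late and 10 to 65.9 early. In whole testes, fewer cells of a type and less RNA per cell cannot be told apart, and a change is relative to all signals of an array. The type A arrays of day 3 sample 1 and day 6 sample 2 carried protamine signal, with a Prm1 signal of up to 759 against at least 10499.6 at days 30 to 56. Without both libraries, 19 members were called higher and 21 lower, against 20 and 21 with them.

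About as many phosphatase genes rose as fell. A change was called at an adjusted p under 0.05 and at least 2-fold in limma on log2(signal + 16), a scale that understates the change of dim genes. Comparing days 30 to 56 with days 0 to 10, 20 of 104 members were higher (19.2%), against 14.9% of all genes, and 21 were lower (20.2%), against 20.6% of all genes. The 20 include the 4 members measured only through later arrays, which had to differ. Values given for them below are descriptions only. The median log2 change was -0.25 over the members and -0.24 over all genes. In the F-test over the 11 days, 60 members (57.7%) varied at an adjusted p under 0.05, against 57% of all genes. All 6 late samples lay above all 10 early ones for 20 members, and below them for 24, against 16.3% and 22.8% of all genes. These shares are near the background of the series, and the members are described below by role. All 41 called members kept their sign within sample number 1 and within sample number 2. They were called from these same samples, so this adds no support to the calls. Scaling each array to its median moved the median of all genes to 0.00 and left 22 members higher and 13 lower. Of all genes 2409 were then higher and 1980 lower, against 2002 and 2774 without that scaling. All 20 higher calls were among the 22, and Dusp5, Dusp8, Dusp28, Ppm1b, Ppp1r12a, Ppp1r3d, Ppp1r8 and Ppp3cb were no longer called lower.

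**Figure D1:**
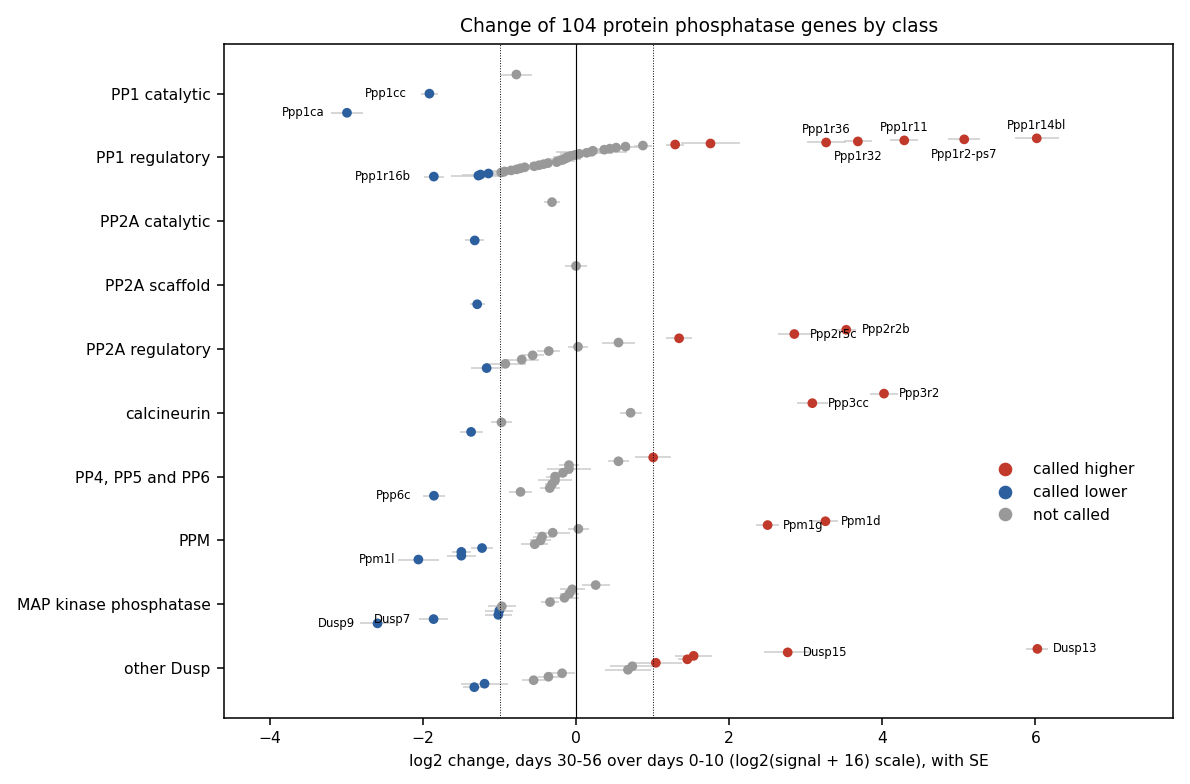
Log2 change of days 30 to 56 over days 0 to 10 for the 104 members, on the log2(signal + 16) scale, grouped by class; points are fitted changes, lines their standard errors, and the dotted lines mark 2-fold. Members that rose reached 6.03 (Dusp13), while the largest fall was -3.00 (Ppp1ca).

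Among the 5 calcineurin genes, both testis forms rose, 1 widely expressed form fell and 2 were not called. Of all genes 14.9% were higher and 20.6% lower. Ppp3r2, the testis form of the calcium-binding regulatory B subunit, had signals of 2463 to 3899.5 (median 2674) at days 30 to 56 and 99.1 to 217 (median 178) at days 0 to 10 (log2 change 4.02 ± 0.18, adjusted p = 1.46e-12). Its samples were at 2114 and 918 at day 18, against 162 and 171 at day 14, and the late and early samples did not overlap. A second Ppp3r2 probe set was not called. With it the change of Ppp3r2 minus that of Ppp3r1 was 1.13, against 5.0 with the one used. Ppp3cc, the testis-enriched catalytic subunit, had signals of 487 to 606 (median 566) at days 30 to 56 and 12.5 to 94.9 (median 50.5) at days 0 to 10 (log2 change 3.09 ± 0.21, adjusted p = 4.56e-10). Its groups did not overlap either, and it was at 94.9 and 89.4 at day 10, 111 and 118 at day 14, 180.0 and 426 at day 18 and 269 and 424 at day 20. Both differed from day 0 at day 18 and every later day.

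The somatic forms took other courses. Ppp3r1, the widely expressed B subunit, had signals of 103 to 156 (median 146) at days 30 to 56 and 137 to 379 (median 304) at days 0 to 10, a log2 change of -0.98 that stayed just under 2-fold and was not called. It was called lower without day 0 sample 1 (-1.05), day 3 sample 2 (-1.02), day 6 sample 2 (-1.01) or day 10 sample 2 (-1.03). Its step from day 14 to day 20 was called (log2 change -1.10 ± 0.26, adjusted p = 0.00595). Ppp3cb, the beta catalytic subunit, had signals of 114 to 161 (median 146) at days 30 to 56 and 273 to 458 (median 413) at days 0 to 10 (log2 change -1.37 ± 0.15, adjusted p = 2.15e-07), with no overlap. Its call was lost with median scaling (-0.38) and with the mean of its probe sets (-0.80). A second probe set of almost the same brightness changed by -0.64. It became the brightest without day 0, day 3, day 8 or day 10 sample 1 or day 10 sample 2, and Ppp3cb was then not called (-0.66 to -0.63). Ppp3ca, the alpha catalytic subunit, had signals of 592 to 1039.9 (median 636) at days 30 to 56 and 322 to 511 (median 436) at days 0 to 10, higher in every late sample, but its change of 0.71 was under 2-fold (0.42 with quantile normalization). With suffixed probe sets left out, another Ppp3ca probe set stood for the gene and was called higher (1.10, adjusted p = 0.000351). Suffixed IDs carry a letter that marks shared or less specific designs.

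**Figure D2:**
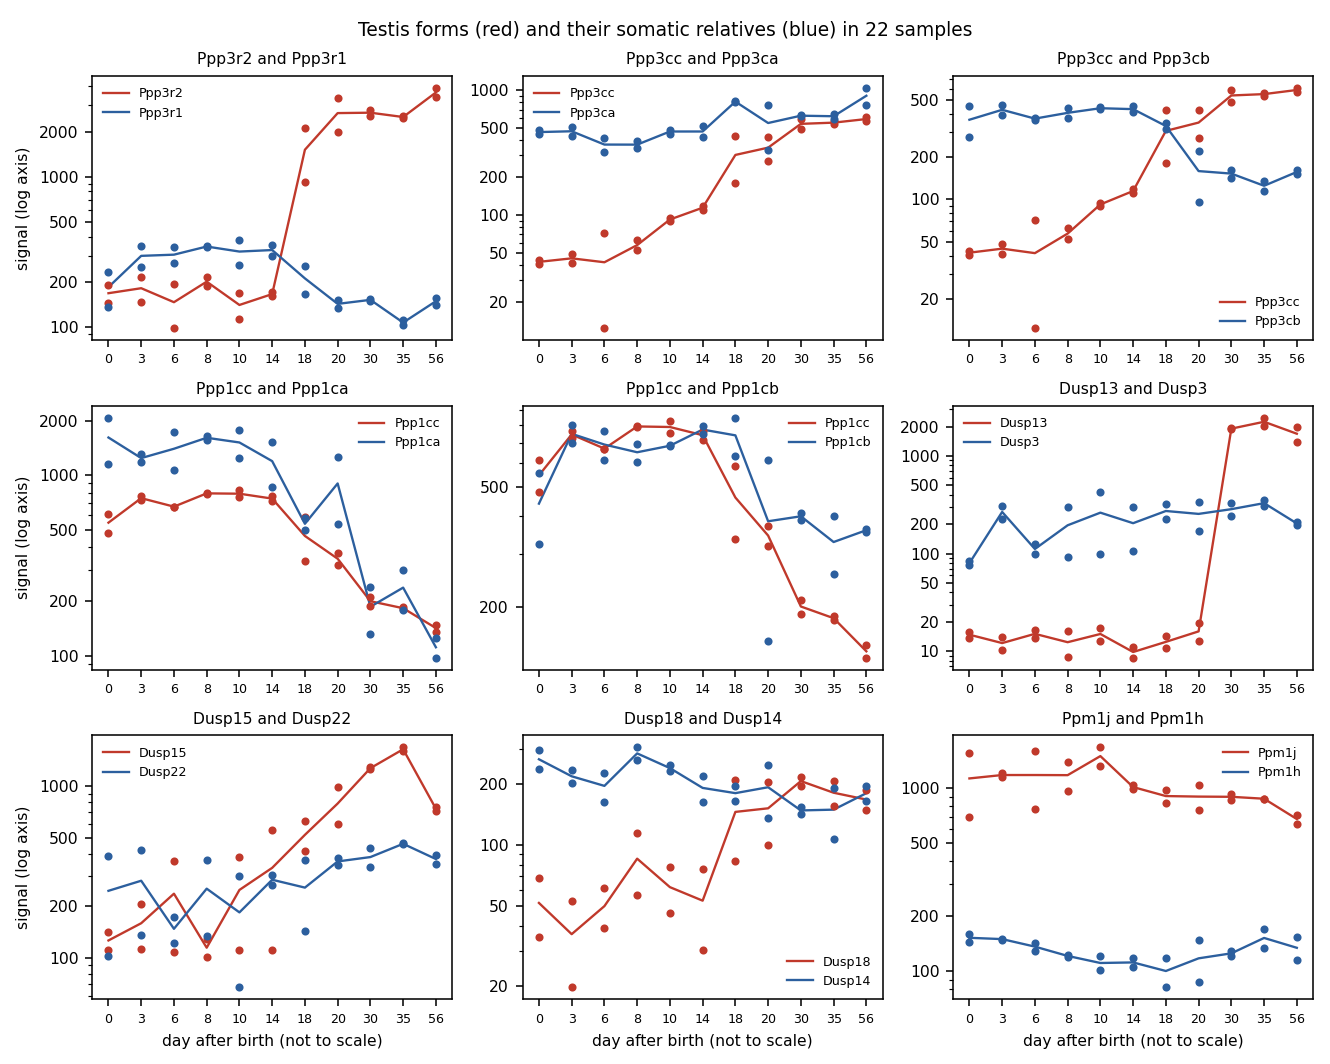
Signal of testis forms (red) and their somatic relatives (blue) by day after birth, on log axes; points are the 2 samples of a day and lines their mean. Ppp3r2, Ppp3cc, Dusp13, Dusp15 and Dusp18 were higher at days 30 to 56 than at days 0 to 10, whereas Ppp1cc fell along with Ppp1ca.

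All 3 catalytic subunit genes of PP1 had negative changes. Ppp1ca, the alpha catalytic subunit, had signals of 97.8 to 298 (median 156) at days 30 to 56 and 1061 to 2078 (median 1439.7) at days 0 to 10 (log2 change -3.00 ± 0.21, adjusted p = 7.74e-10), and the groups did not overlap. The other Ppp1ca probe set that passed the filter had 219 to 484 (median 336) late and 253 to 479.7 (median 332) early, a log2 change of 0.00. The fall of Ppp1ca therefore rests on 1 of its 2 probe sets. Ppp1cc, the gene of both the gamma1 form and the sperm form gamma2, had signals of 136 to 211 (median 183) at days 30 to 56 and 479 to 826 (median 739) at days 0 to 10 (log2 change -1.92 ± 0.11, adjusted p = 6.76e-11), again without overlap. It was still 716 and 767 at day 14, then 586 and 335 at day 18 and 149 and 136 at day 56. Its dimmer probe set changed by 0.28 and was not called. The annotation does not say which splice form either probe set reads. Ppp1cb, the beta subunit that works with myosin phosphatase, had signals of 256 to 410.1 (median 376) at days 30 to 56 and 324 to 801 (median 684) at days 0 to 10 (log2 change -0.78 ± 0.21, adjusted p = 0.00327), under 2-fold.

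The PP1 regulators included several of the steepest rises. Of 38 measured, 7 rose and 4 fell, against 14.9% of all genes higher and 20.6% lower. The other 27 were not called, and the median log2 change of the 38 was -0.12. With median scaling 8 rose and 1 fell, with a median of 0.15, and with quantile normalization 7 rose and 4 fell, with a median of 0.09, so the median has no firm sign. Ppp1r14bl, a gene close to the PP1 inhibitor gene Ppp1r14b, had signals of 3304 to 4404 (median 3729.7) at days 30 to 56 and 13.7 to 114 (median 41.9) at days 0 to 10 (log2 change 6.02 ± 0.28, adjusted p = 2.97e-12). The mean of its probe sets rose by 3.84. It was at 2904 and 1192 at day 18, against 132 and 139.6 at day 14. Ppp1r14b itself had signals of 544 to 639.9 (median 594) at days 30 to 56 and 338 to 469 (median 400.1) at days 0 to 10, a log2 change of 0.52 that was not called. Ppp1r11, the gene of inhibitor 3, had signals of 3151 to 4492 (median 3802) at days 30 to 56 and 121 to 290.0 (median 179.8) at days 0 to 10 (log2 change 4.29 ± 0.18, adjusted p = 5.01e-13), with 1554 and 1078 at day 18, against 329 and 364 at day 14. Its other probe sets changed by 0.82 and 0.04 and were not called, and the mean of all 3 rose by 1.72.

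The other PP1 regulators that rose included 2 loci related to inhibitor 2. Ppp1r2-ps7, named as a pseudogene of the inhibitor 2 gene Ppp1r2, had signals of 548 to 1121 (median 654) at days 30 to 56 and 1.2 to 16.9 (median 2.7) at days 0 to 10 (log2 change 5.07 ± 0.21, adjusted p = 4.01e-13). Only later arrays took it past the signal filter, so this p supports nothing. Its signal did not pass 3.6 at days 14 to 20, and every sample of days 30 to 56 was at 548 or more. Ppp1r2-ps9, another such locus, rose by 1.75 with overlapping groups, while Ppp1r2 itself had 224 to 335 (median 264) late and 422 to 477 (median 437) early and was not called (-0.67). Probes of these loci could in principle also bind Ppp1r2 transcripts, which these arrays do not separate. Ppp1r32, known from ciliated cells, had signals of 520.0 to 831 (median 754) at days 30 to 56 and 21.2 to 65.1 (median 49.5) at days 0 to 10 (log2 change 3.68 ± 0.18, adjusted p = 4.04e-12). It was at 786 and 722 at day 30, against 117 and 118 at day 20. Ppp1r36, a PP1 partner known from testis, had 388 to 529.9 (median 482) at days 30 to 56 and 11.2 to 127 (median 33.4) at days 0 to 10 (log2 change 3.27 ± 0.26, adjusted p = 3.09e-09), and 1 early sample, day 3 sample 2, reached 127. Ppp1r36 also passed the signal filter only through later arrays, and its p supports nothing. Ppp1r7, the gene of the Sds22 subunit, rose by 1.29.

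Of the PP1 regulators that fell, Ppp1r16b had the largest change. This membrane-bound subunit, known from endothelium, had signals of 82.7 to 108 (median 102) at days 30 to 56 and 337 to 502 (median 400.1) at days 0 to 10 (log2 change -1.86 ± 0.13, adjusted p = 4.66e-10), without overlap, and was at 62.2 and 124 by day 18. Summed signals of 3 endothelial markers were 50.1 to 153 late and 234.5 to 729 early. Of the 3 only Cdh5 was called lower (log2 change -2.67), while Pecam1 (-0.52) and Kdr (-0.95) were not called. The part of these markers in the fall of Ppp1r16b was not tested. Ppp1r12a, the myosin phosphatase targeting subunit, changed by -1.28, the glycogen-targeting Ppp1r3d by -1.25 and the nuclear inhibitor gene Ppp1r8 by -1.15, each with overlapping groups. Ppp1r37 was called over 1 window only, with 220.4 and 151 at day 35 and 455 and 968 at day 20 (log2 change -1.78 ± 0.33, adjusted p = 0.00119).

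**Figure D3:**
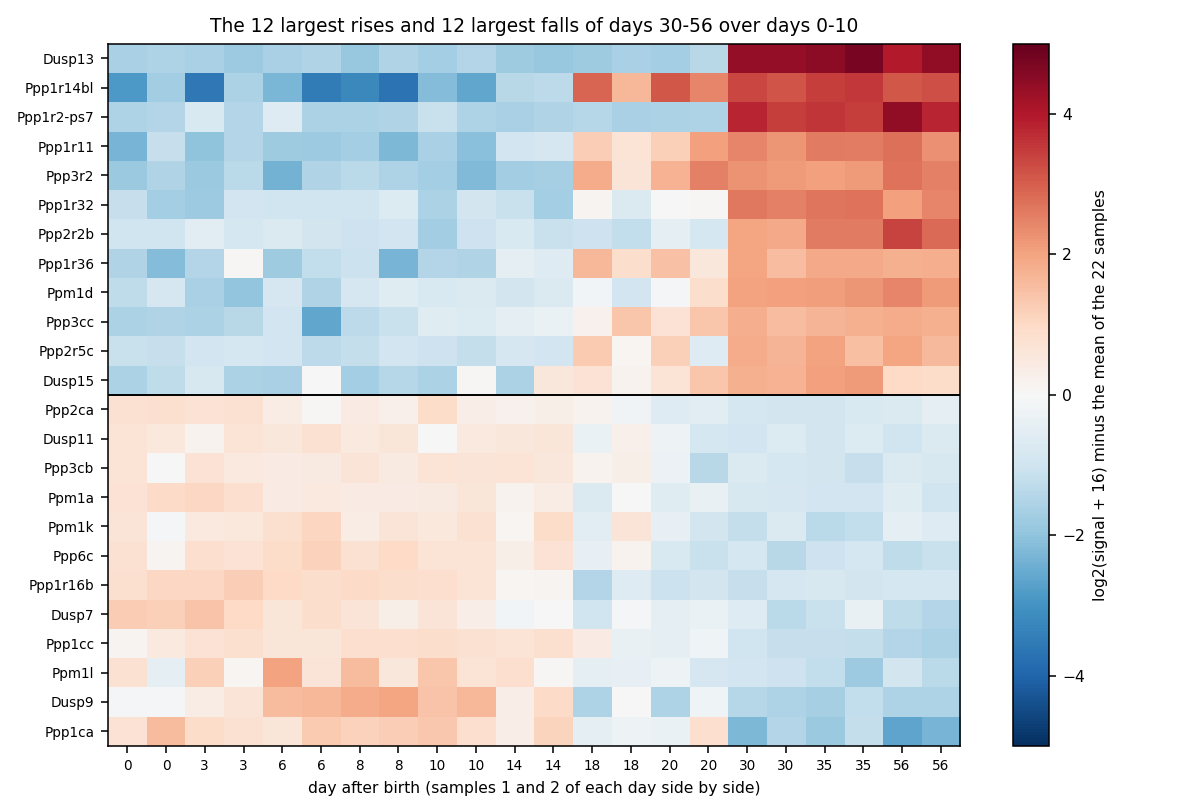
Heat map of the 12 largest rises and 12 largest falls in 22 samples, as log2(signal + 16) minus the mean of the samples (colour), by day after birth. Ppp1r14bl, Ppp1r11, Ppp3r2, Ppp1r36 and Ppp3cc turn red at day 18, whereas Dusp13, Ppp1r2-ps7 and Ppp2r2b turn red at day 30.

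PP2A is a trimer of a catalytic, a scaffold and a variable regulatory subunit. By the brightest probe sets, its core fell where it changed. Ppp2ca, the alpha catalytic subunit, was dim, with signals of 13.6 to 23.4 (median 15.6) at days 30 to 56 and 42.2 to 88.2 (median 67.7) at days 0 to 10 (log2 change -1.33 ± 0.12, adjusted p = 3.3e-08). With a pseudocount of 64 its change was -0.69 and not called. Of the 2 Ppp2ca probe sets past the filter, only the brightest was called. Ppp2cb, the beta catalytic subunit, had signals of 273 to 308 (median 284) at days 30 to 56 and 277 to 435 (median 366) at days 0 to 10 and was not called (-0.32). The main scaffold gene Ppp2r1a had 245 to 295 (median 268) at days 30 to 56 and 572 to 862 (median 674) at days 0 to 10 (log2 change -1.29 ± 0.10, adjusted p = 2.62e-09), without overlap. The other scaffold, Ppp2r1b, had 179 to 290.4 (median 239.6) late and 142 to 334 (median 246) early, and was not called. Under alternatives other than leaving out a single sample its change ran from -0.94 to 0.31, without a call.

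Of 10 variable PP2A subunits, 3 rose and 1 fell, against 14.9% of all genes higher and 20.6% lower. Ppp2r2b, the B55 beta subunit best known from brain, had signals of 486 to 1373 (median 796) at days 30 to 56 and 24.2 to 76.3 (median 52.2) at days 0 to 10 (log2 change 3.53 ± 0.13, adjusted p = 1.41e-13). It was 79.1 and 57.2 at day 20, 507 and 486 at day 30, 790.1 and 802 at day 35 and 1373 and 941 at day 56, and no late sample came near an early one. Ppp2r5c, the B56 gamma subunit, had 1896 to 2676 (median 2307) at days 30 to 56 and 256 to 353 (median 306) at days 0 to 10 (log2 change 2.85 ± 0.22, adjusted p = 2.02e-09). The mean of its 5 probe sets changed by 0.32 and was not called, and 1 of the 5 was called higher. Ppp2r5e, B56 epsilon, rose by 1.34, and Ppp2r5d, B56 delta, fell to 7.7 to 14.7 late against 10.4 to 89.1 early (log2 change -1.17).

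PP4, PP5 and PP6 are relatives of PP2A. Of their 11 measured genes 1 rose and 1 fell, against 14.9% of all genes higher and 20.6% lower. Ppp6c, the PP6 catalytic subunit, had signals of 202 to 292 (median 252) at days 30 to 56 and 602 to 1226 (median 940.5) at days 0 to 10 (log2 change -1.86 ± 0.14, adjusted p = 1.75e-09), without overlap. Its partner Ppp6r2 rose, at 43.1 to 168 (median 89.4) late and 24.3 to 49.7 (median 31.4) early, by 1.01, close to the 2-fold limit. Ppp6r2 passed the signal filter only through later arrays and had to differ, so its rise is a description only. The PP4 catalytic subunit Ppp4c had 309 to 491 (median 455) late and 385 to 674 (median 459.9) early and was not called (-0.17). Ppp5c, a phosphatase that binds the chaperone Hsp90, had 74.0 to 87.7 (median 81.0) late and 32.2 to 72.4 (median 49.2) early, higher in every late sample but under 2-fold (0.55). Its highest signal was at day 18 (144 and 114).

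Of 11 PPM genes, 2 rose and 4 fell by the brightest probe set, and 2 and 3 with median scaling. Of all genes 14.9% were higher and 20.6% lower without that scaling. Ppm1d, the gene of the p53-induced phosphatase Wip1, had signals of 1526 to 2060.1 (median 1603) at days 30 to 56 and 79.5 to 236 (median 196) at days 0 to 10 (log2 change 3.26 ± 0.17, adjusted p = 7.28e-12). It was at 1526 and 1546 at day 30, against 332 and 177 at day 18. A second Ppm1d probe set changed by -0.49 and was not called, and the mean of both rose by 1.38. Ppm1g, a nuclear phosphatase, had 1019.9 to 1692 (median 1522) at days 30 to 56 and 188 to 324 (median 229) at days 0 to 10 (log2 change 2.50 ± 0.15, adjusted p = 8.46e-11), and had begun to rise by day 18 (478 and 873). Both lacked overlap between late and early samples.

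Ppm1l, a stress kinase phosphatase, had signals of 45.7 to 99.0 (median 82.2) at days 30 to 56 and 137 to 852 (median 341) at days 0 to 10 (log2 change -2.06 ± 0.27, adjusted p = 2.25e-06). Its early samples were uneven, with 852 and 319 at day 6, yet all lay above the late ones. Ppm1k, the mitochondrial phosphatase of branched-chain amino acid breakdown, had 34.7 to 80.1 (median 52.4) at days 30 to 56 and 109 to 258 (median 180.0) at days 0 to 10 (log2 change -1.5 ± 0.19, adjusted p = 1.58e-06). Ppm1a, a phosphatase with many substrates, had 104 to 139 (median 112) at days 30 to 56 and 299.5 to 467 (median 330.3) at days 0 to 10 (log2 change -1.5 ± 0.13, adjusted p = 7.17e-09). The direction of Ppm1a depends on the probe set. Without suffixed probe sets its change was 0.51. Ppm1b, its closest relative, fell by 1.23 on the log2 scale by the brightest probe set. Its type A probe sets rose, as given below, so it has no single direction either. The other 5 PPM genes had changes from -0.54 (Ppm1j) to 0.03 (Ppm1h) and were not called.

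Among the 10 MAP kinase phosphatases 0 rose and 4 fell by the brightest probe set, against 14.9% of all genes higher and 20.6% lower. With quantile normalization or median scaling 2 fell, Dusp5 and Dusp8 no longer passing. A dimmer Dusp10 probe set was called higher (1.37), with 86.4 to 150.4 late and 19.8 to 60.4 early. A dimmer Dusp2 probe set was called lower (-1.20). Dusp9, which acts on ERK, had signals of 6.4 to 14 (median 8.35) at days 30 to 56 and 50.6 to 263 (median 184) at days 0 to 10 (log2 change -2.60 ± 0.23, adjusted p = 1.51e-08). With a pseudocount of 64 its change was -1.49, and with the mean of its probe sets -1.26. It was the one member called higher at day 8 than at day 0. Its samples were at 50.6 and 51.5 at day 0, 77.0 and 96.4 at day 3, 196 and 206 at day 6, 243 and 263 at day 8, 173 and 209 at day 10 and 73.6 and 122 at day 14. At day 8 it was 2.00 ± 0.45 above day 0 on the log2 scale (adjusted p = 0.0194). Dropping any 1 of its 4 samples ended that call: the adjusted p was then 0.0621 and 0.0618 for the day 0 samples and 0.104 and 0.132 for those of day 8, with changes of 1.95 to 2.06, and the mean of its 6 probe sets changed by 0.56. A pseudocount of 1 ended it too (adjusted p = 0.125).

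Dusp7, a cytoplasmic ERK phosphatase, fell, with signals of 17.6 to 56.7 (median 25.2) at days 30 to 56 and 100 to 239 (median 144) at days 0 to 10 (log2 change -1.86 ± 0.18, adjusted p = 6.03e-08). With a pseudocount of 64 its change was -1.19. It was lower than at day 0 from day 14 on. Dusp5, the nuclear ERK phosphatase, had 105 to 194 (median 132) at days 30 to 56 and 227 to 433 (median 270.1) at days 0 to 10 (log2 change -1.02 ± 0.18, adjusted p = 5.89e-05), with its lowest signals at day 18 (59.3 and 120.2). It lost its call with a pseudocount of 64 (-0.83), and without day 0 sample 2 (-0.93), day 30 sample 1 (-0.96), day 35 sample 1 (-0.89) or day 56 sample 2 (-0.96). Dusp8, a JNK phosphatase, was called at -1.0 and Dusp6, the cytoplasmic ERK phosphatase, was not at -0.97, although all 6 late Dusp6 samples lay below the 10 early ones. Dusp6 was called without sample 1 of day 0 (-1.03), 3 (-1.03), 6 (-1.01), 8 (-1.04) or 10 (-1.03), or sample 2 of day 30 (-1.04) or 35 (-1.08). Dusp4, another nuclear MAP kinase phosphatase, had 39.9 to 109 (median 77.5) late and 34.3 to 84.4 (median 60.0) early (0.25).

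Dusp1, the immediate-early MAP kinase phosphatase, dipped and returned. It was 134 and 180.1 at day 0 and 91.5 and 117 at day 14, then 65.4 and 57.2 at day 18 and 35.7 and 55.5 at day 20, and 131 and 132 at day 30, 128 and 119 at day 35 and 132 and 124 at day 56. The 4 samples of days 18 and 20 were below all others. Day 35 was above day 20 by 1.19 ± 0.25 (adjusted p = 0.00323). Over the main comparison it was not called, with 119 to 132 (median 129) late and 102 to 180.1 (median 134) early (-0.09, and 0.12 with median scaling). Of 7 other immediate-early genes 0 rose and 2, Fos and Ier2, fell. Their summed signal was 403 to 441 at day 20, 370.2 to 512.5 at days 30 to 56 and 674 to 1127.5 at days 0 to 10, and their part in the course of Dusp1 was not tested.

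**Figure D4:**
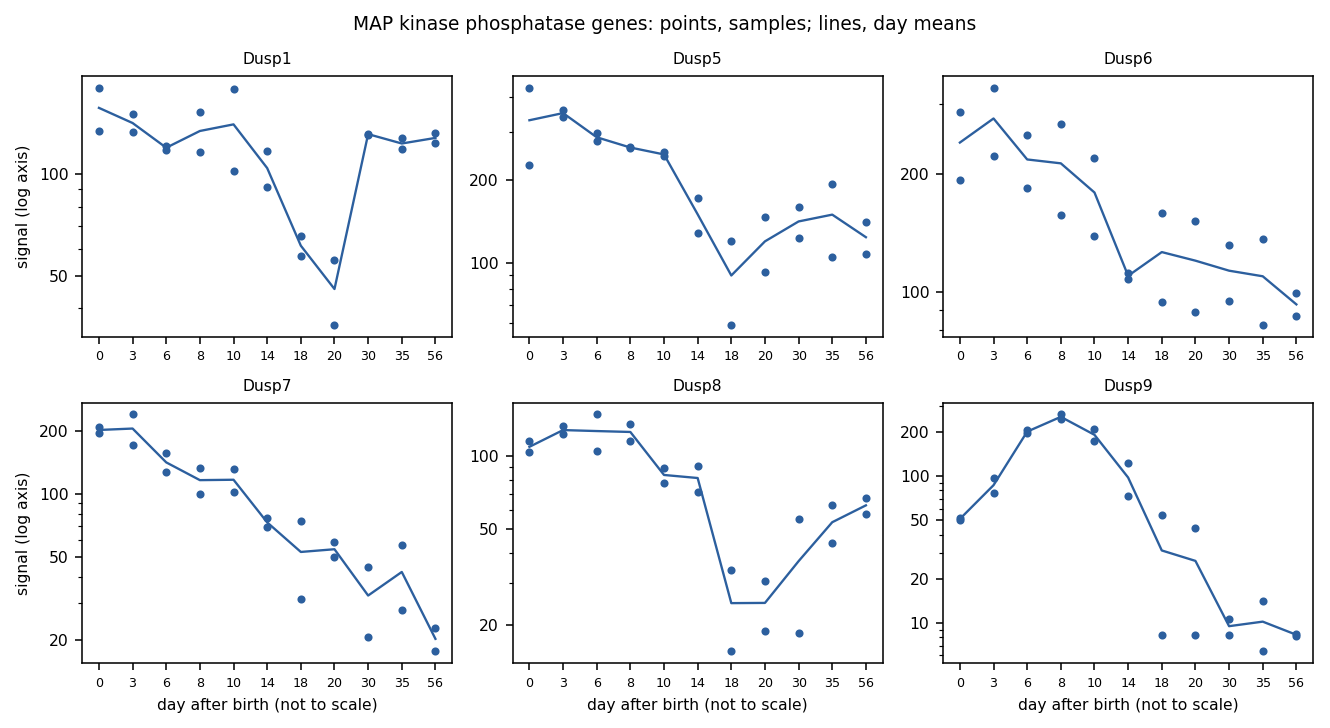
Signal of 6 MAP kinase phosphatase genes by day after birth, on log axes; points are the 2 samples of a day and lines their mean. Dusp9 peaks at day 8 at 243 and 263, Dusp1 is lowest at day 20 at 35.7 and 55.5, and Dusp7 falls to 22.8 and 17.6 at day 56.

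Of the 12 other dual-specificity phosphatases 5 were higher and 2 lower, against 5 and 1 with quantile normalization and 6 and 1 with median scaling. In the main fit 14.9% of all genes were higher and 20.6% lower. Dusp13, known from testis and skeletal muscle, had signals of 1399.5 to 2466 (median 1952) at days 30 to 56 and 8.7 to 17.4 (median 13.8) at days 0 to 10 (log2 change 6.03 ± 0.14, adjusted p = 3.61e-16). It was at 1891 and 1921 at day 30, against 12.6 and 19.3 at day 20. Dusp13 passed the signal filter only through later arrays, so its p supports nothing. A dimmer probe set of Dusp13 had 40.6 to 81.3 (median 48.3) late and 25.7 to 111 (median 56.9) early and was not called, and the mean of both rose by 3.0. The skeletal muscle markers Ckm and Acta1 were not called higher, with summed signals of 104 to 149 late and 128 to 273 early.

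Dusp15, a small membrane-attached phosphatase, had 716 to 1674 (median 1268) at days 30 to 56 and 100.5 to 384 (median 120.1) at days 0 to 10 (log2 change 2.76 ± 0.32, adjusted p = 4.37e-07). Its early samples split, with sample 2 at 363 at day 6 and 384 at day 10 while sample 1 was at 108 and 111, and its signal was lower at day 56 (756 and 716) than at day 35 (1592 and 1674), a step that was not called (log2 change -1.13 ± 0.61, adjusted p = 0.618). Dusp18, a phosphatase found in mitochondria, had 149 to 218 (median 192) at days 30 to 56 and 19.8 to 115 (median 54.8) at days 0 to 10 (log2 change 1.53 ± 0.25, adjusted p = 2.41e-05). Dusp19, known to bind the JNK pathway, rose by 1.45 and was 115 and 217 at day 18. Dusp22, which also acts in JNK signalling, had overlapping groups and a change of 1.04. Its other probe sets changed by -0.16, 0.62 and -0.08 and were not called. Its call was lost with the mean of probe sets (0.27, adjusted p = 0.19), with suffixed probe sets left out (0.62) and with a pseudocount of 64 (0.86). It was also lost without day 0 sample 1 (0.86), day 3 sample 2 (0.89), day 6 sample 2 (0.995), day 8 sample 2 (0.90), day 10 sample 2 (0.85) or day 30 sample 1 (0.98). Dusp11, which works on RNA, had 105 to 135 (median 121) at days 30 to 56 and 232 to 395 (median 339) at days 0 to 10 (log2 change -1.33 ± 0.14, adjusted p = 1.54e-07), and Dusp28 changed by -1.20 with overlap.

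Testis forms were set against their somatic relatives by the change in their log2 ratio per sample, since signals of different probe sets cannot be compared as levels. Of 10 pairs, 9 had both forms measured, and in all 9 the change of the brightest probe sets differed at an adjusted p under 0.05 by an exact two-sided permutation test of 6 late against 10 early samples. The smallest p this design can give is 0.000125, which is 0.000187 after adjustment over the 9 pairs. Ppp3r2 gained 5.0 ± 0.19 on Ppp3r1 (exact adjusted p = 0.000187), and Ppp3cc gained 4.46 ± 0.19 on Ppp3cb and 2.37 ± 0.22 on Ppp3ca, on the log2 scale with the same p. Dusp18 gained 2.09 ± 0.25 on Dusp14, also at the smallest p. In each of these pairs every late ratio exceeded every early one. Dusp13 gained 5.29 ± 0.32 on Dusp3, but Dusp13 passed the signal filter only through late arrays, so this difference is a description and its p supports nothing. Without that pair, 8 of 8 passed.

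The remaining pairs were less uniform. Dusp15 gained 1.72 ± 0.44 on Dusp22 with overlapping ratios (exact adjusted p = 0.0107). The change of Ppp1cc minus that of Ppp1ca was 1.08 ± 0.23, with overlap (exact adjusted p = 0.000482). With the other Ppp1ca probe set it was -1.92, so its sign depends on the probe set. The change of Ppp1cc minus that of Ppp1cb was -1.14 ± 0.14, without overlap (exact adjusted p = 0.000187), and 1.06 with the dimmer Ppp1cc probe set. Ppm1j, a testis form of the PPM family, changed by -0.57 ± 0.21 relative to Ppm1h, with overlap (exact adjusted p = 0.038). With suffixed probe sets left out, another Ppm1j probe set was used and the difference was 3.91, so this sign depends on the probe set too. The call was lost with median scaling (-0.50, exact adjusted p = 0.0763) and without any of 8 samples (sample 1 of day 0, 6, 8, 10 or 56, or sample 2 of day 10, 35 or 56), with differences of -0.58 to -0.47 and exact adjusted p of 0.0556 to 0.0916. Over every combination of probe sets past the filter, an alternative chosen after seeing the data and not tested, the difference ran from 3.46 to 4.46 for Ppp3cc and Ppp3cb, 1.98 to 2.38 for Ppp3cc and Ppp3ca, 0.32 to 5.0 for Ppp3r2 and Ppp3r1, 0.32 to 2.93 for Dusp15 and Dusp22, -0.09 to 2.56 for Dusp18 and Dusp14 and -2.0 to 6.64 for Dusp13 and Dusp3. Over the list of testis forms, which comes from textbook knowledge, 7 of 9 measured rose, 1 fell (Ppp1cc) and Ppm1j was not called. Of all genes 14.9% were higher and 20.6% lower. Dusp13 and Ppp1r36, among those that rose, passed the signal filter only through later arrays and had to differ. Ppp1r42 and Dusp21 were not measured.

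Most rises began at day 18 or day 30. Measured from day 0, 17 members were higher from some day to the end (16.3%, against 15.9% of all genes) and 19 were lower (18.3%, against 21.1%). The 10 that rose from day 18 were Dusp15, Dusp19, Ppm1g, Ppp1r11, Ppp1r14bl, Ppp1r32, Ppp1r36, Ppp2r5c, Ppp3cc and Ppp3r2, which is 9.62% of the members against 4.7% of all genes. Dusp18 and Ppm1d followed from day 20 (1.92%, against 1.03% of all genes). Dusp13, Ppp1r2-ps7, Ppp1r7, Ppp2r2b and Ppp2r5e followed from day 30 (4.81%, against 4.83% of all genes). Falls were spread more widely, with Dusp7 and Ppp2r5d lower from day 14 (1.92%, against 2.24% of all genes). Dusp5, Ppm1a and Ppp1r16b were lower from day 18 (2.88%, against 4.23%), and Dusp11, Ppp2ca, Ppp3cb and Ppp6c from day 20 (3.85%, against 2.73%). A further 6 members, Ppp1ca and Ppp1cc among them, were lower from day 30 (5.77%, against 4.77%), Dusp6 from day 35 (0.962%, against 1.41%) and Ppp1r13b, Ppp1r15a and Ppp1r3d from day 56 (2.88%, against 4.12%). These comparisons share the day 0 samples. Summed round spermatid markers were 6672.5 and 3371 at day 18, against 288 and 459 at day 14. Of these markers, Zpbp2 was higher than at day 0 from day 14 on, but Acrv1, Actrt2 and Tssk3 only from day 30. Summed spermatocyte markers were 11923 and 9959 at day 18, against 4727 and 5383 at day 14. Elongating spermatid markers were 32044 and 35918 at day 30, against 252 and 353 at day 20. The part of these cell types in the onsets was not tested.

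Between successive ages, calls were concentrated in 2 windows. From day 0 to day 8, 1 member rose (0.962%, against 1.37% of all genes) and 0 fell, against 1.24% of all genes, with 12 members at an unadjusted p under 0.05. From day 8 to day 14, limma called 0 members in either direction, against 1.13% of all genes higher and 0.289% lower, and 10 members had an unadjusted p under 0.05. From day 14 to day 20, 9 members rose (8.65%, against 7.41%) and 11 fell (10.6%, against 8.36%). Ppp1r14bl rose by 4.11, Ppp3r2 by 3.83 and Ppp1r11 by 2.52. With the mean of their probe sets Ppp1r14bl rose by 2.68 and Ppp1r11 by 1.18. The largest fall was that of Ppp2r3a, a calcium-binding PP2A subunit, with 25.5 and 11.7 at day 20 and 149 and 81.3 at day 14 (log2 change -1.90 ± 0.51, adjusted p = 0.0134). With a pseudocount of 64 its change was -1.10, and it was not called without day 14 sample 1 (-1.52) or day 20 sample 2 (-1.61). Dusp9 fell by 1.53 in that window, a call lost without day 14 sample 2 (-1.22) or day 20 sample 1 (-0.88), with the mean of its probe sets (-0.25, adjusted p = 0.735) and with a pseudocount of 64 (-0.85). Ppp3cb fell by 1.46, a call lost without day 20 sample 2 (-0.92), with median scaling (-0.47), with the mean of its probe sets (-0.66) or where its other probe set took over (-0.64).

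From day 20 to day 35, 8 members rose (7.69%, against 6.06%) and 3 fell (2.88%, against 4.3%). Dusp13 rose by 6.14, Ppp1r2-ps7 by 5.07 and Ppp2r2b by 3.28. Dusp13 rose by 3.33 with the mean of its probe sets, and Ppp1r2-ps7 by 3.29 with a pseudocount of 64 and 7.77 with one of 1. Dusp28 (-2.08), Ppp1r37 (-1.78) and Ppp1ca (-1.77) fell. Ppp1ca was not called without day 20 sample 2 (-1.17) or day 35 sample 1 (-1.42). For Dusp28 the call was lost on leaving out day 20 sample 2 (-1.5) or either day 35 sample (-1.86 without number 1 and -2.29 without number 2), and with quantile normalization (-1.94), the mean of its probe sets (-1.41) or suffixed probe sets left out (-0.35, adjusted p = 0.749). From day 35 to day 56, limma called 0 members and 0% of all genes in either direction, and 7 members had an unadjusted p under 0.05.

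Different probe sets of a gene did not always move together. Of 51 members with at least 2 probe sets past the filter, 2 had all of them called the same way, 31 had some called in 1 direction and others not called, 17 had none called, and Ppm1b had calls in both directions. The genes that follow were picked after their values were seen. The 3 type A probe sets of Ppm1b rose. The brightest of these had 746 to 1043 (median 863) late and 111 to 219 (median 141) early (log2 change 2.42), and another had 454 to 638 (median 546) late and 25.2 to 50.1 (median 30.5) early (3.54). The probe set that stood for Ppm1b had 225 to 337 (median 255) late and 505 to 925 (median 617) early (-1.23), and a type B probe set fell as well (-1.25). The arrays therefore gave Ppm1b no single direction.

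Further members had a dimmer probe set that differed from the brightest. For Ppm1j, the dimmer probe set had 375 to 572 (median 528) late and 6.8 to 43.0 (median 14.1) early (3.94), against -0.54 for the one used. For Ppp1r10, a nuclear targeting subunit of PP1, it had 344 to 724 (median 491) late and 4.0 to 46.4 (median 13.8) early (4.09), against 0.87. The Ppp2r5c probe set that rose stood apart from 4 others with changes of -0.82 to -0.36. For Ppp2r5a, B56 alpha, a second probe set had 31.6 to 41.8 (median 36.3) late and 179.9 to 247 (median 211) early (-2.10), against 0.02 for the one used. For Dusp6 the second probe set fell, with 35.8 to 54.6 (median 40.2) late and 152 to 448 (median 203) early (-2.13).

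**Figure D5:**
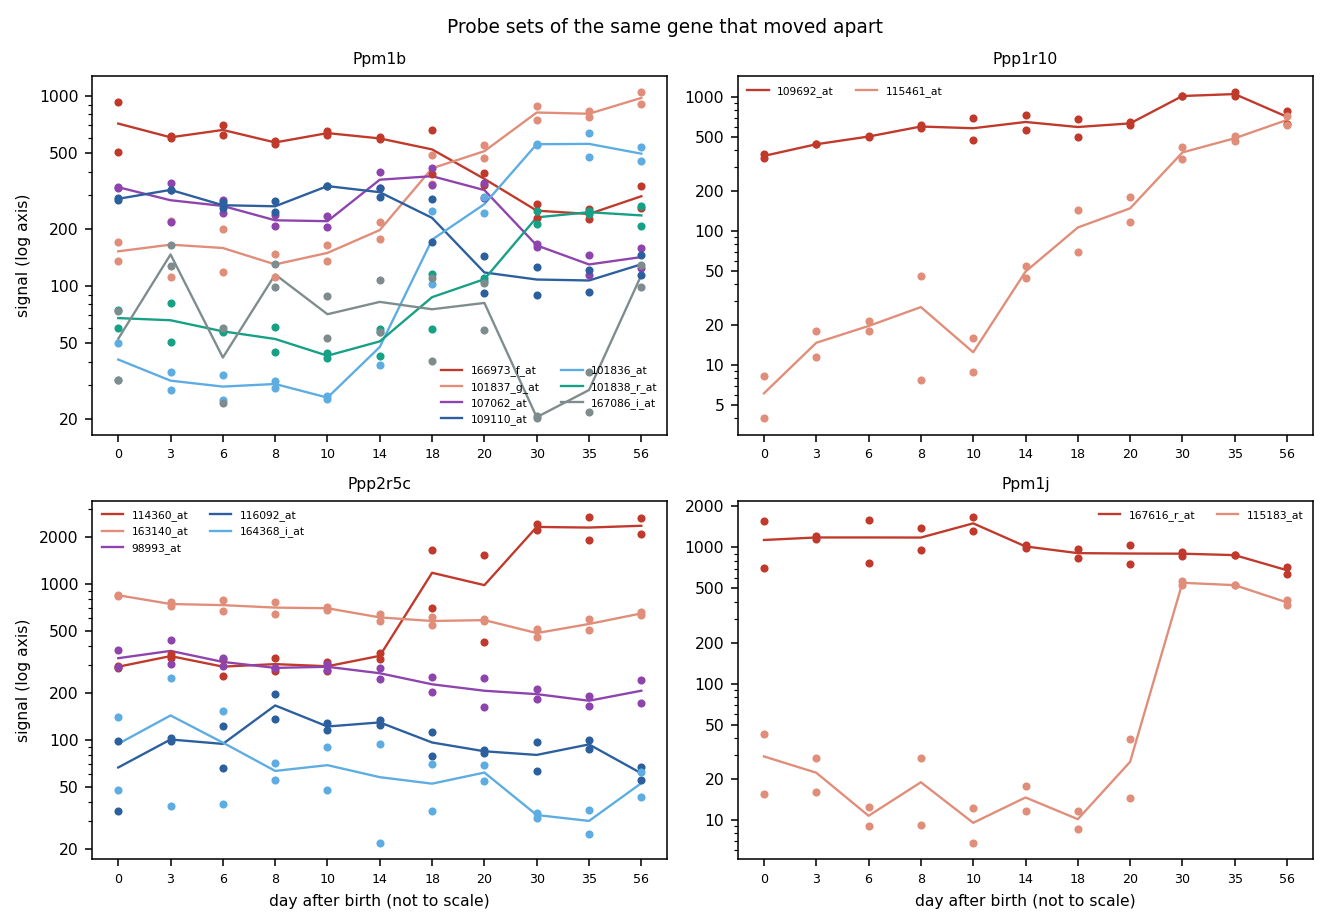
Signal of every probe set past the filter for Ppm1b, Ppp1r10, Ppp2r5c and Ppm1j by day after birth, on log axes; points are the 2 samples of a day, lines their mean, and names are probe set IDs. In each panel at least 1 probe set climbs after day 14. For Ppm1b, Ppp2r5c and Ppm1j another stays level or falls, whereas for Ppp1r10 the brighter probe set also climbs, but by less.

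Genes that act with these phosphatases were counted by list, beside the 14.9% of all genes that were higher and 20.6% that were lower. Of 15 PP2A modulators, 1 rose and 7 fell, with a median log2 change of -0.99 against -0.24 over all genes. Anp32a, a PP2A inhibitor, had signals of 35.3 to 58.9 (median 44.5) at days 30 to 56 and 182 to 348 (median 241) at days 0 to 10 (log2 change -2.09 ± 0.09, adjusted p = 2.36e-12), and the inhibitor Set changed by -1.25. Arpp19 and Ensa, the mitotic inhibitors of PP2A-B55, changed by -1.24 and -1.0, and the striatin-complex genes Mob4 and Strn by -1.47 and -1.30. Igbp1, the alpha4 protein that holds free catalytic subunits, changed by -1.27, and Strn4 was the 1 that rose (1.07).

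Of 9 measured calcineurin partners 0 rose and 1 fell, with a median of -0.53. Nfatc2, a transcription factor freed by calcineurin, had 11 to 45.1 (median 27.0) late and 113 to 188 (median 134) early (-1.96). Of 8 MAP kinases, Mapk10 (JNK3) rose, with 178 to 372 (median 270.2) late and 32.2 to 66.0 (median 47.0) early (2.16), and Mapk14 (p38 alpha) fell (-1.43). Their median was -0.30. Of 13 other phosphatases, Phlpp1, which acts on Akt, and Ssh2, a cofilin phosphatase, rose by 1.85 and 1.75, while Cdc14b, Cdc25b and Ilkap fell, with a median of -0.48 over the list.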

How the data were processed

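Total RNA of 22 testis samples was hybridised to 66 arrays of 3 types. The deposited values are intensity signals, 1 per probe set, which the authors scaled to a mean of 125 per array, per the labels' protocols. The software behind them is not given in the sources used here, and no detection calls were used. Array number and signal over background limit the precision.

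Probe sets were named from the platform annotation. Those naming 1 gene with a signal of 50 or more on 2 or more arrays were kept, and the brightest stood for its gene. log2(signal + 16) was fitted over day means in limma 3.58.1 (R 4.3.3) with lmFit and eBayes, separately for each array type, and p-values were Benjamini-Hochberg adjusted over 13472 genes per comparison. Values after ± are standard errors. The script was tested on simulated data. Pairs of forms were tested by exact two-sided permutation over samples.

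Named members were both forms of each pair, the 12 largest rises and falls, the 3 largest per window, core subunits, and Dusp1, Dusp4, Dusp5, Dusp6 and Dusp9. Further members, which complete the called ones of a class or are close relatives, were added after their values were seen, as were the named genes outside the set. Members and lists were chosen with earlier results of these data known. Alternatives changed the pseudocount, filter, scaling, probe set rule, left-out samples and a block by sample number.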

Additional observations from a re-analysis of the deposited data

How the results depend on the processing

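The counts for days 30 to 56 against days 0 to 10 stayed within 1.5 times of 20 higher and 21 lower under every alternative run, except that median scaling left 13 lower. With 1 sample left out at a time they were 18 to 20 higher and 20 to 22 lower, with 54 to 65 members in the F-test. Median scaling left 5 members lower from day 14 to day 20, and a pseudocount of 64 left 4, and 12 with a fall from day 0. The single rise from day 0 to day 8 was lost (0) with a pseudocount of 1 or the mean of probe sets. From day 8 to day 14, 1 member was lower with a floor of 32, and 1 was higher with quantile normalization or without both protamine-carrying libraries, an alternative chosen after seeing the data. The causes were not tested.

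With 1 sample left out, the first window (days 0 to 8) had 0 to 2 rises and 0 to 1 falls, the next (days 8 to 14) 0 to 1 rises and 0 falls, with 6 to 11 rises beside 7 to 12 falls between days 14 and 20, 6 to 8 rises beside 1 to 4 falls between days 20 and 35, and 17 to 19 rising and 15 to 20 falling from day 0. The counts of 7 came without day 14 sample 2 or day 20 sample 2, and that of 1 without day 20 sample 2. The rise from day 0 to day 8 was 0 without either day 8 sample and 2 without either sample of day 0 or day 20. From day 8 to day 14, 1 was higher without either sample of day 0 or day 3 or without day 8 sample 1. From day 0 to day 8, 1 was lower without day 0 sample 1 or day 8 sample 2. From 8 to 9 of the 9 pairs passed.

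Of 2115 values of 64 named results under alternatives, 2031 kept direction and call, 64 lost the call, 17 gained it and 3 reversed. The reversals were Ppm1a (0.51), Ppm1j (3.94) and the pair of Ppm1j and Ppm1h (3.91) with suffixed probe sets left out, where another probe set stands for the gene. With sample number as a replicate block, 66 members varied over all days, 20 were higher and 21 lower late, 11 rose and 11 fell from day 14 to day 20, and 18 rose and 20 fell from day 0. Correlations of same-numbered samples' deviations had medians of 0.10, 0.13 and 0.06 on types A, B and C and passed 0.1 in 28, 34 and 23 of 55 day pairs, so the numbers were not taken as pairs. Some members did follow the number: sample 2 was higher on all 11 days for Dusp6 and Ppm1h, and sample 1 for Ppp1r3a. Whether numbers mark a shared source was not tested. Signal near background limits dim members such as Ppp2r5d and Ppp2ca.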
